A study of Mus musculus with 6 samples.

Results

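Activator protein 1 (AP-1) is a family of transcription factors that bind DNA as pairs through a basic leucine zipper. The 10 family genes described here were Fos, Fosb, Fosl1, Fosl2, Jun, Junb, Jund, Atf3, Maff and Mafk, taken by gene symbol from a table of 22081 genes, and all 10 passed the filter on low values. They were compared between muscle stem cells (MuSCs, which rest beside the muscle fibres and repair them) of control and Taf4asKO mice, with 3 RNA-seq libraries per group. In MuSCs freshly isolated from Taf4asKO mice, the normalized counts of Fos, Junb and Jund were 1.76-fold, 1.87-fold and 1.61-fold those of control cells. Jun and Fosb, which had levels per kilobase in the upper part of the family in control cells, differed by 0.19 and 0.17 on the log2 scale and did not pass the test.

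Taf4asKO mice carried loxP-flanked Taf4a (listed in the table as Taf4, a subunit of the general transcription factor TFIID) and a tamoxifen-inducible Cre recombinase expressed from the Pax7 locus, so that the deletion was confined by design to Pax7-expressing cells after tamoxifen. Control mice were littermates of the same C57BL/6 background. For the study as a whole, controls are described as carrying the floxed Taf4a alleles on both chromosomes, with or without the Pax7-driven Cre. The 3 control libraries are labelled WT in their titles and Control as genotype. Which alleles they carried, whether their donors received tamoxifen, and whether a library came from 1 animal or from several are not given in the sources used here. The study describes its replicates as biological.

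Fos and Jun proteins are the classical partners of AP-1. Fos family proteins cannot pair with each other and bind DNA with a Jun protein, whereas Jun proteins can also pair among themselves. ATF3 is a stress-induced basic leucine zipper protein that pairs with Jun proteins, and the small Maf proteins MAFF and MAFK lack an activation domain and act as partners of CNC and other leucine zipper factors. Many of these genes are immediate early genes: signalling kinases switch on their transcription within minutes, without new protein synthesis, and their mRNAs are short-lived. Mechanical and enzymatic dissociation of muscle is known to induce them in MuSCs. Here the muscles were minced and digested with dispase and collagenase, cells carrying SCA1, CD45 or CD31 were depleted, and MuSCs were sorted by Integrin-a7 or, from mice that carried a Pax7-ZsGreen reporter, by its fluorescence. Which sort served these libraries is not given in the sources used here. No library without dissociation was analysed here, so the level of an AP-1 mRNA in the muscle and its induction during isolation cannot be told apart in either group.

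The promoter sequences of 5 members are shown because the genes share a rapid transcriptional response while their differences between the groups ranged from a fold change of 1.12 for Fosb to 2.25 for Atf3. Of the 10 members, 9 had an entry among the RefSeq promoter windows (assembly GRCm38.p6), and Fosl1 had none. Each line gives the 150 bases before the RefSeq transcription start, 5′ to 3′ on the strand of the gene. Capitals mark matches, on either strand, to the GC box GGGCGG, the CCAAT box CCAAT and the TATA box TATAAA. The CRE motif TGACGTCA and the AP-1 motif TGANTCA were searched in the same way and had no match in these 5 sequences. The regions are chr12:85473740-85473889 (plus strand) for Fos, chr8:84978749-84978898 (minus strand) for Junb, chr1:191183334-191183483 (minus strand) for Atf3, chr4:95052223-95052372 (minus strand) for Jun and chr7:19310046-19310195 (minus strand) for Fosb.
Fos: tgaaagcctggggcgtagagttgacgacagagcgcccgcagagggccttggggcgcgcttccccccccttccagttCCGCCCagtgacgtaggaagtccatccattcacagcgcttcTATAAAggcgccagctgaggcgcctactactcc
Junb: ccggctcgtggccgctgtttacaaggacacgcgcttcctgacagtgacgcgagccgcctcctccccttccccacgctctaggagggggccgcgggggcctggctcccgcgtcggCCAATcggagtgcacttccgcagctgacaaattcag
Atf3: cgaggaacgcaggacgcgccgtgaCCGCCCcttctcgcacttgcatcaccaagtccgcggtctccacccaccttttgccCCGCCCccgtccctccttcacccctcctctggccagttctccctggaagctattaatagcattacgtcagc
Jun: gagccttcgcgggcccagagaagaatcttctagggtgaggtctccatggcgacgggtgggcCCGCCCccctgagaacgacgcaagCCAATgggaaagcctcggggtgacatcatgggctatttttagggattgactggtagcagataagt
Fosb: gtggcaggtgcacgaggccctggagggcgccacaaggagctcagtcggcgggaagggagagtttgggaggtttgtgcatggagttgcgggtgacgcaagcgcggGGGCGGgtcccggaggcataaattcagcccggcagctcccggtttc

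Counting from the start site, with -1 as the base before it, the Fos sequence held TATAAA at -33 to -28, and the CCAAT matches lay at -65 to -61 in Jun and at -36 to -32 in Junb. Within the whole window of 250 bases before to 50 after the start, a match to GGGCGG was present in Fos, Fosb, Jun and Atf3 and not in Junb. Of all 32851 promoter windows of 300 bases, 35.7% held GGGCGG, 37.4% CCAAT, 13.6% TATAAA, 1.79% TGACGTCA, 7.81% TGANTCA and 1.63% a CArG box, the motif bound by serum response factor. No window of a member held TGANTCA or a CArG box, and TGACGTCA occurred only in a window of Maff, at -29 to -22 from that start. These matches are descriptions of letters and not of binding. Only exact matches within the windows were counted, so variant sites and sites further away were not looked for. The RefSeq start coincided with the start of the gene in the table for Fos and Jun, lay close to it for Fosb and Junb, and lay inside the gene as annotated in the table for Atf3. For Jund, whose sequence is not shown, the bases before the RefSeq start end at chr8:70697738, upstream of the annotated gene start at 70698949. That Jund window held no match to the motifs searched, and it may not describe the promoter of the counted gene.

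The total of the normalized counts per library lay between 12338676 and 14551732 in control and between 13036518 and 13523386 in Taf4asKO. Counts divided by a size factor and rounded do not give the number of reads, so no counting intervals are given. For Taf4 itself the normalized counts of replicates 1 to 3 were 613, 534 and 478 in control and 631, 565 and 574 in Taf4asKO (a log2 fold change of 0.13 with SE 0.12, adjusted p = 0.524 by limma). The gene total also covers exons outside the deleted stretch and does not check the labels, and Taf4asKO below means the libraries with that label. For its Taf4asKO mice the study reports a nearly total loss of Taf4a mRNA by RT-qPCR in freshly isolated MuSCs. It reports the same for the protein by western blot in cultured MuSCs. Of the 6 MuSC marker genes, Pax7 had a mean of 12444 ± 494 normalized counts (SD, n = 3) in control and 10732 ± 404 in Taf4asKO (log2 fold change -0.21, adjusted p = 0.161), while Myf5, Itga7 and Cdh15 were lower and Vcam1 was higher in Taf4asKO. The 6 summed to 27833 to 29348 in control and 25177 to 25930 in Taf4asKO, without overlap. Leaving out single libraries ended the call of Cdh15 for each Taf4asKO library and that of Itga7 for every library other than control replicate 3. Among markers of other cells, the Schwann cell transcription factor Sox10 had 185, 534 and 420 normalized counts in the control libraries and 734, 1016 and 900 in the Taf4asKO libraries, and passed the test as higher (log2 fold change 1.34, adjusted p = 0.0227), a call lost without any 1 of the Taf4asKO libraries. The 5 endothelial markers summed to 878 to 1271 in control and 1382 to 1682 in Taf4asKO, with 0 of the 5 past the test. The sums overlapped between the groups for the lists that follow, at 2152 to 4814 and 3429 to 4985 for 5 fibro-adipogenic markers (Cd34 lower), 6105 to 10098 and 8353 to 9896 for 4 mural markers (Rgs5 higher, but not without any 1 of the Taf4asKO libraries), 941 to 3042 and 1631 to 2307 for 4 muscle fibre markers and 131 to 328 and 195 to 201 for the 2 of 5 blood markers that the table lists. Blocked by replicate number, 3 of the 5 fibro-adipogenic (Pdgfra, Dcn and Lum), 2 of the 5 endothelial (Cdh5 and Kdr) and 3 of the 4 mural markers (Rgs5, Pdgfrb and Kcnj8) passed as higher. By re-analysis of sorted cells, the study found their purity to be incomplete, without giving it per library. The part of these cell types in the AP-1 differences was not tested. In such bulk samples, fewer cells of a type and less RNA per cell cannot be told apart. Ptprc, Adgre1 and Cd3e, which define leukocytes, macrophages and T cells, are not among the table's genes.

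Across the 10 members, 3 passed the test as higher in Taf4asKO (adjusted p under 0.05 and at least a 1.3-fold change) and 0 as lower. Of all 18562 tested genes, 5.93% passed as higher, 6.71% as lower and 12.6% in either direction. These shares depended on single libraries: without Taf4asKO replicates 1, 2 and 3 in turn, 2.72%, 1.84% and 1.97% of genes passed as higher and 4.26%, 3.35% and 3.21% as lower, while 3 members passed as higher and 0 as lower in each of the 3 fits. The median log2 fold change of the members was 0.18, and that of all tested genes was 0.0040. In 5 members (Fos, Jun, Junb, Jund and Atf3) every Taf4asKO library was above every control library, and in 0 every one was below. Among all tested genes the groups did not overlap in 16.6% with Taf4asKO higher and in 16.4% with Taf4asKO lower. When the replicate number, which both groups share, entered the model as a block, 4 members passed as higher and 1 as lower, beside 9.09% and 8.98% of all tested genes. The additional calls were Atf3 and Fosl1.

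**Figure D1:**
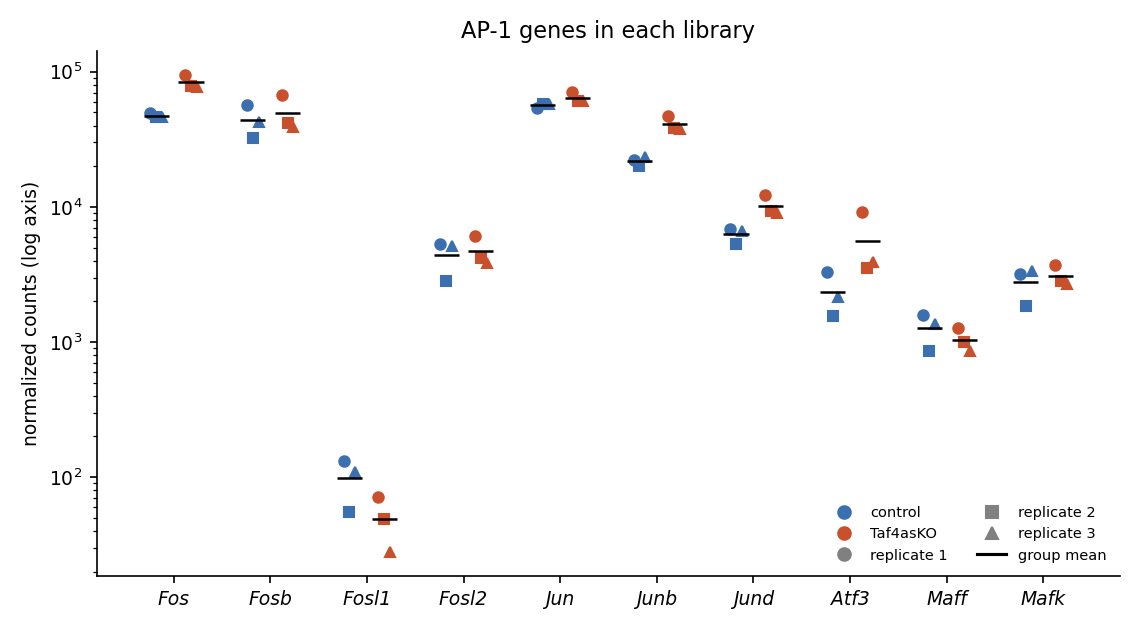
Normalized counts (log axis) of the 10 AP-1 genes in each of the 6 libraries. Blue points are control and red points Taf4asKO, the shape gives the replicate number and the bar the group mean (n = 3). Heights are not corrected for gene length and compare groups within a gene. For Fos, Jun, Junb, Jund and Atf3 the red points lie above the blue ones, and in all 10 genes replicate 1 is the highest Taf4asKO library.

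Fos is the founding member of the family and the main inducible partner of Jun. In the order of the replicate numbers 1 to 3, which is kept below, its normalized counts were 49708, 46200 and 46002 in control and 95238, 78804 and 77365 in Taf4asKO MuSCs. All 3 Taf4asKO libraries lay above all 3 control libraries, and the control libraries lay close together. The log2 fold change was 0.82 (SE 0.13, 95% interval 0.52 to 1.11, limma adjusted p = 0.00399), a rise of 1.76-fold. Fos lies at chr12:85473890-85477273 on the plus strand (mm10) and no annotated gene overlaps it.

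Fosb, a close relative of Fos whose shorter splice form accumulates under repeated stimulation in other tissues, showed 56651, 32425 and 42293 normalized counts in the control libraries and 66926, 41913 and 39335 in the Taf4asKO libraries. The groups overlapped, and replicate 1 was the highest library in both. The log2 fold change was 0.17 (SE 0.24, 95% interval -0.36 to 0.70, adjusted p = 0.688). The interval runs from a 0.779-fold to a 1.62-fold level, so a rise of the size seen for Jund lies within it. The value turned to -0.029 without control replicate 2 and to -0.072 without Taf4asKO replicate 1.

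The other Fos family genes had lower levels. Fosl2, which encodes FRA2, reached 5326, 2843 and 5091 normalized counts in control MuSCs, compared to 6077, 4180 and 3812 in Taf4asKO MuSCs, with overlapping groups (log2 fold change 0.11, 95% interval -0.42 to 0.64, adjusted p = 0.806). Its value was -0.18 without control replicate 2 and -0.092 without Taf4asKO replicate 1. Fosl1, which encodes FRA1 and in many cells is itself induced by AP-1 with a delay, yielded 132, 55 and 109 normalized counts across the control and 71, 49 and 28 across the Taf4asKO libraries. Control replicate 2 lay below Taf4asKO replicate 1, so the groups overlapped, but each Taf4asKO library was lower than the control library of the same number. The log2 fold change was -0.99 (SE 0.39, 95% interval -1.85 to -0.13, adjusted p = 0.122) and did not pass. Blocked by replicate number it passed as lower (SE 0.30, adjusted p = 0.0392), as it did without control replicate 2 (log2 fold change -1.36, adjusted p = 0.0338). Its exons share 1162 bases with Ccdc85b on the opposite strand, and whether reads were counted by strand is not stated, so its value is uncertain.

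Jun, the partner that gives AP-1 dimers their highest activity, showed 53798, 57758 and 57491 normalized counts in the control libraries and 71273, 60802 and 60970 in the Taf4asKO libraries. The groups did not overlap, but the lower 2 Taf4asKO libraries were near the upper 2 control libraries. Jun had a log2 fold change of 0.19 (SE 0.13, 95% interval -0.09 to 0.47, adjusted p = 0.359), and the interval ends at a 1.38-fold level. Without Taf4asKO replicate 1 it was 0.11, the lowest value of the 19 fits made, which differ from each other in a setting or in a library left out. Jun is a gene without introns at chr4:95049034-95052222 on the minus strand, and 232 of its exonic bases overlap the antisense gene Junos.

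Junb, a Jun protein that activates transcription more weakly than Jun and can oppose it, reached 22308, 20010 and 23320 normalized counts in control MuSCs, compared to 47022, 38611 and 37754 in Taf4asKO MuSCs. The lowest Taf4asKO library was well above the highest control library. This was a log2 fold change of 0.91 (SE 0.13, 95% interval 0.63 to 1.19, adjusted p = 0.00191), a rise of 1.87-fold and the largest among the members past the test. Junb is also a gene without introns, listed at chr8:84976910-84978718 on the minus strand.

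Jund, the Jun gene that is expressed in most resting cells and is the least inducible of the family, yielded 6892, 5355 and 6595 normalized counts across the control and 12205, 9295 and 8983 across the Taf4asKO libraries. Again the groups did not overlap. Jund differed by 0.69 on the log2 scale (SE 0.14, 95% interval 0.37 to 1.0, adjusted p = 0.0120), a rise of 1.61-fold. It lies at chr8:70698949-70700616 on the plus strand, and 877 of its exonic bases are shared with the antisense gene Gm11175, which the table does not list. At the limits given above, Fos, Junb and Jund passed as higher in each of the 19 fits, with log2 fold changes from 0.72 to 0.87 for Fos, from 0.81 to 1.10 for Junb and from 0.55 to 0.92 for Jund. With a fold limit of 2 in place of 1.3, 0 members passed, and at an adjusted p under 0.01 Fos and Junb passed and Jund did not.

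Atf3, which is induced by stress and injury in many cell types, showed 3275, 1567 and 2163 normalized counts in the control libraries and 9232, 3523 and 3911 in the Taf4asKO libraries. The groups did not overlap, but the lowest Taf4asKO library was only slightly above the highest control library, and replicate 1 was the highest in both groups. The log2 fold change of 1.17 (SE 0.35, 95% interval 0.40 to 1.95) was the largest of the family, and at an adjusted p of 0.0524 by limma it did not pass. Taken by number, the Taf4asKO library exceeded the control library by 1.49, 1.17 and 0.85 on the log2 scale in replicates 1 to 3. Blocked by replicate number, Atf3 had an SE of 0.12 and passed as higher (adjusted p = 8.69e-05). It passed in 6 of the 19 fits, including the one without control replicate 1 (log2 fold change 1.45, adjusted p = 0.0270). Over all fits the adjusted p ranged from 5.48e-06 to 0.192 and the log2 fold change from 0.73 to 1.45.

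Neither small Maf gene passed in the 19 fits. Maff reached 1579, 859 and 1356 normalized counts in control MuSCs, compared to 1269, 994 and 852 in Taf4asKO MuSCs (log2 fold change -0.26, 95% interval -0.74 to 0.22, adjusted p = 0.470), and its value ran from -0.51 to -0.075 when single libraries were left out. Mafk yielded 3171, 1831 and 3353 normalized counts across the control and 3738, 2813 and 2687 across the Taf4asKO libraries (log2 fold change 0.18, 95% interval -0.30 to 0.66, adjusted p = 0.631). In both genes the groups overlapped, and both intervals include no difference as well as changes beyond 1.3-fold. The value of Mafk turned to -0.098 without control replicate 2. Mafk shares 169 exonic bases with Tmem184a on the opposite strand.

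**Figure D2:**
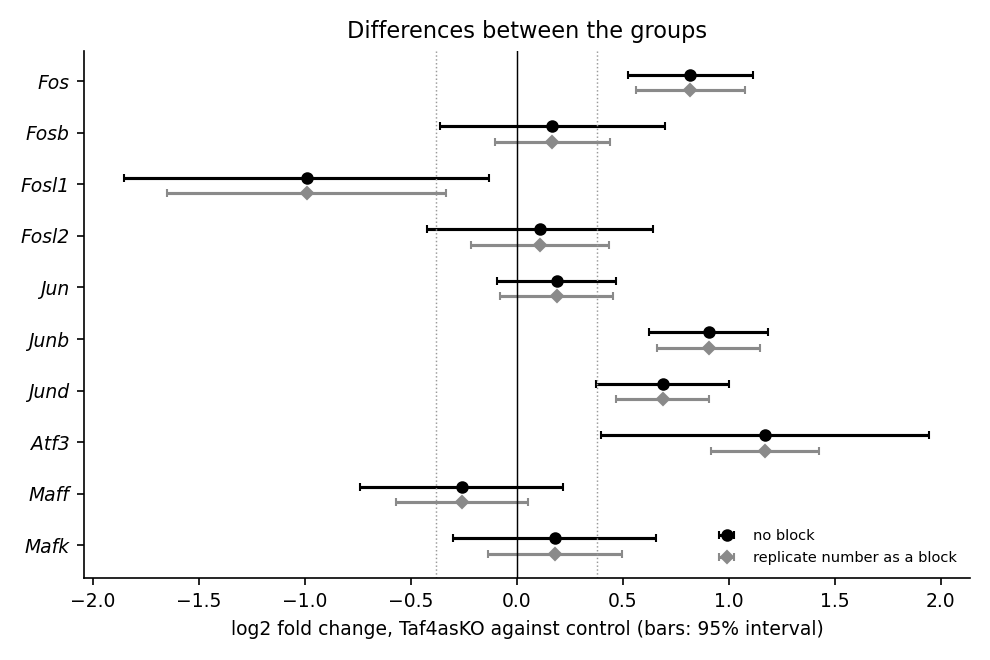
Log2 fold change of each AP-1 gene in Taf4asKO against control MuSCs with its 95% interval, without (black) and with (grey) a block for the replicate number. Dotted lines mark a 1.3-fold change. The intervals of Fos, Junb and Jund lie above 0 in both fits, those of Fosb, Fosl2, Jun, Maff and Mafk include 0 in both, and those of Atf3 and Fosl1 exclude 0 in both and are shorter with the block.

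The libraries of a group kept a similar order in many of the members. Replicate 1 was the highest Taf4asKO library for all 10 members, and control replicate 2 was the lowest control library for 8 of them, the exceptions being Fos and Jun. The summed normalized counts of the 10 members were 202840, 168903 and 187773 in control and 313051, 240984 and 235697 in Taf4asKO, which is 2.43%, 1.89% and 2.23% of the protein-coding total in control and 3.55%, 2.79% and 2.76% in Taf4asKO. The lowest Taf4asKO share was above the highest control share. Between libraries of the same number, the log2 difference of Fos was 0.94, 0.77 and 0.75 in replicates 1 to 3. Junb gave 1.08, 0.95 and 0.70, and Jund gave 0.82, 0.80 and 0.45. These genes were therefore higher in all 3 number-matched comparisons, as was Jun by 0.41, 0.074 and 0.085. Fosb (0.24, 0.37 and -0.10), Fosl2 (0.19, 0.56 and -0.42) and Mafk (0.24, 0.62 and -0.32) were higher in replicates 1 and 2 and lower in replicate 3. Fosl1 was lower in all 3, with differences of -0.89, -0.16 and -1.92, and Maff gave -0.32, 0.21 and -0.67.

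**Figure D3:**
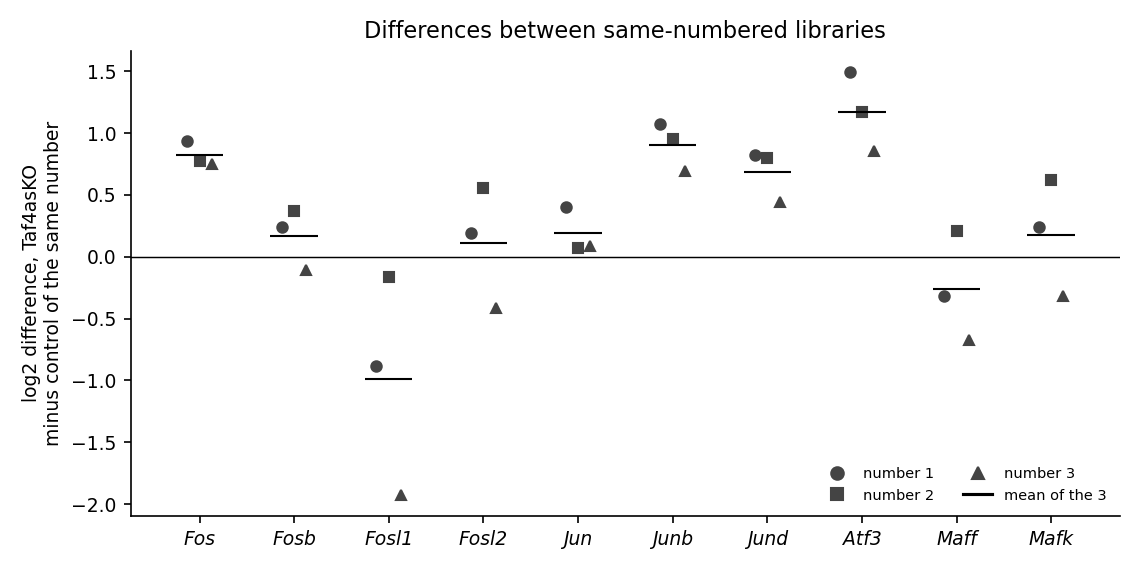
Log2 difference between the Taf4asKO and the control library of the same replicate number for each AP-1 gene, with the mean of the 3 as a bar. All 3 points are above 0 for Fos, Jun, Junb, Jund and Atf3 and below 0 for Fosl1, and points of Fosb, Fosl2, Maff and Mafk lie on both sides.

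Levels of different genes were compared as normalized counts per kilobase of exon. These lengths include bases shared with genes on the opposite strand, so the levels of Fosl1, Jun, Jund and Mafk could be understated. In control MuSCs the order was Fos (20112 ± 886, SD, n = 3), Jun (17670 ± 694), Junb (12095 ± 938), Fosb (7014 ± 1951), Jund (3765 ± 489), Atf3 (1084 ± 402), Mafk (714 ± 213), Maff (524 ± 153), Fosl2 (457 ± 142) and Fosl1 (52.6 ± 21.1). The libraries of neighbouring genes in this order overlapped from Atf3 to Mafk, from Mafk to Maff and from Maff to Fosl2, and did not overlap elsewhere. In Taf4asKO MuSCs the means were 35630 ± 4222 for Fos, 22736 ± 2831 for Junb and 20178 ± 1881 for Jun, and the ranges of Junb and Jun overlapped. Fosb followed with 7911 ± 2441 and Jund with 6092 ± 1065, also with overlapping ranges. Below these were Atf3 (2579 ± 1481), Mafk (789 ± 147), Fosl2 (484 ± 126), Maff (430 ± 87.8) and Fosl1 (26.3 ± 11.5), where the ranges of Fosl2 and Maff overlapped. Junb thus lay below Jun per kilobase in control, and the ranges of these genes overlapped in Taf4asKO.

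The balance within the family was examined by ratios of normalized counts inside each library, on which a scaling factor common to all genes of a library has no effect. The ratios were not among the planned comparisons. Since Jun differed little, those of Fos, Junb and Jund to Jun largely restate the differences given above and are no separate evidence. The ratio of Junb to Jun was 0.415, 0.346 and 0.406 in control and 0.660, 0.635 and 0.619 in Taf4asKO. For Fos to Jun the values were 0.924, 0.800 and 0.800 in control and 1.34, 1.3 and 1.27 in Taf4asKO. The ratio of Jund to Jun was 0.128, 0.0927 and 0.115 in control and 0.171, 0.153 and 0.147 in Taf4asKO. None of these 3 ratios overlapped between the groups, and each gave p = 0.1 in a two-sided exact permutation test, the smallest value that 3 against 3 libraries allow (0.167 after adjustment over the 5 ratios computed). Thus the permutation test could not pass 0.05 here. The ratio of Fos to Fosb was 0.877, 1.42 and 1.09 in control and 1.42, 1.88 and 1.97 in Taf4asKO, and that of Atf3 to Jun was 0.0609, 0.0271 and 0.0376 in control and 0.130, 0.0579 and 0.0641 in Taf4asKO. Each of the latter overlapped between the groups (p = 0.2 by the same exact test, which does not use the replicate numbers). Within each replicate number, however, both of these ratios were higher in the Taf4asKO library. Junb made up 24.1% to 26.9% of the summed normalized counts of Jun, Junb and Jund in control and 35.1% to 36.0% in Taf4asKO.

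**Figure D4:**
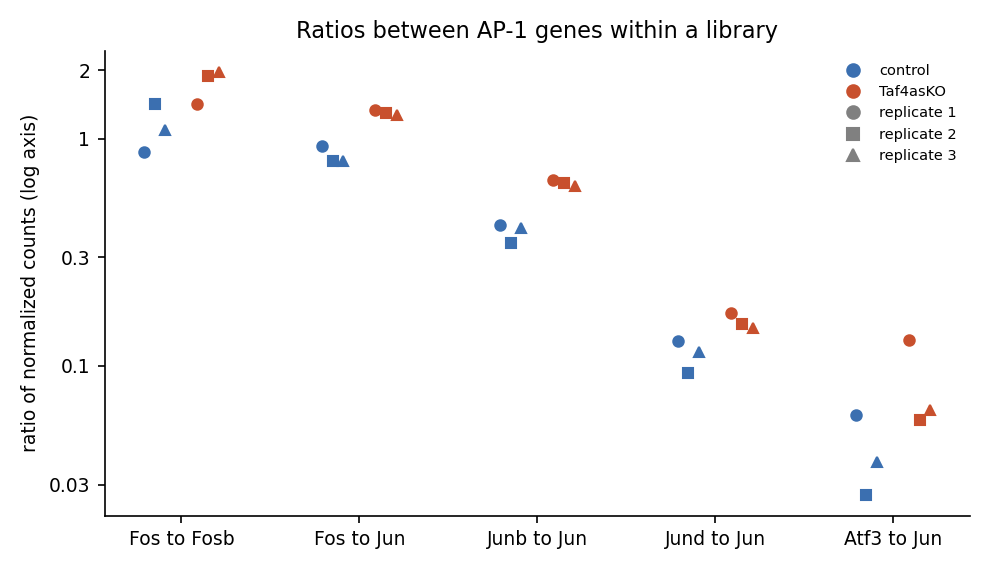
Ratios of normalized counts between pairs of AP-1 genes within each library (log axis), with control in blue, Taf4asKO in red and the replicate number as the shape. The ratios of Fos, Junb and Jund to Jun are higher in all 3 Taf4asKO libraries than in any control library, and those of Fos to Fosb and of Atf3 to Jun overlap.

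Profiles over the 6 libraries were compared by the root mean square difference of log2 values after centring each gene, over 10577 genes with a mean of at least 50, leaving out the members and symbols that are Gm numbers or Rik names. Among the members, the nearest pairs were Fosl2 and Mafk (0.0805), Fos and Junb (0.0815) and Fos and Jund (0.124). The genes outside the family nearest to Fos were Ssbp3 (0.0555), Plagl1 (0.0614) and Sdc4 (0.0756). Ssbp3, for example, showed 527, 470 and 457 normalized counts in the control libraries and 890, 801 and 790 in the Taf4asKO libraries. Genes close to Jun included Yap1 (0.0304) and Fndc3b (0.0346). These distances describe 6 libraries of 2 groups, and the shared difference between the groups enters them.

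Of 16 other leucine zipper genes whose products pair with or compete with AP-1 proteins, Batf and Batf3 were not in the table, 3 of the 14 tested were higher, 1 was lower (5.93% and 6.71% of all tested genes) and the median log2 fold change was 0.19. Mafa, a large Maf factor known from pancreatic beta cells, rose from 60.0 ± 9.85 to 185 ± 26.0 normalized counts (log2 fold change 1.61, adjusted p = 0.000954). Atf2, a partner of Jun at CRE sites, rose by a log2 fold change of 0.59 (adjusted p = 0.00413), and Nfe2l2, which encodes the oxidative stress regulator NRF2 and pairs with small Maf proteins, rose by 0.53 (adjusted p = 0.0172) but did not pass without Taf4asKO replicate 1 or 2. Maf was lower, with a log2 fold change of -0.56 (adjusted p = 0.0385), a call lost without control replicate 3 and without each Taf4asKO replicate. Of 17 genes acting upstream, the MAP kinases and the factors that bind the Fos and Jun promoters, 1 was higher and 1 was lower, which is near the 5.93% and 6.71% of all tested genes, with a median of 0.037. Map3k1, a kinase upstream of JNK, rose from 518 ± 35.0 to 865 ± 40.3 normalized counts (log2 fold change 0.74, adjusted p = 0.00192). Srf, which encodes the serum response factor of the Fos promoter, fell from 1398 ± 86.2 to 910 ± 138 (log2 fold change -0.63, adjusted p = 0.00881), a call lost without Taf4asKO replicate 2 or 3. Creb1 had a log2 fold change of 0.37 (adjusted p = 0.0705).

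Of 18 genes known as AP-1 targets in various cells, 15 were tested, 2 were higher, 1 was lower and the median log2 fold change was 0.64, beside 5.93% of all tested genes higher and 6.71% lower. Ccl2, a monocyte chemoattractant, reached 14, 17 and 26 normalized counts in control MuSCs, compared to 296, 204 and 181 in Taf4asKO MuSCs (log2 fold change 3.52, SE 0.28, adjusted p = 0.000107). It was low in every control library and did not overlap. Plau, the urokinase protease, rose from 1178 ± 204 to 1822 ± 247 (log2 fold change 0.64, adjusted p = 0.02), a call lost without Taf4asKO replicate 2 or 3. Ccnd1, which encodes cyclin D1 and responds to AP-1 in proliferating cells, fell from 3102 ± 436 to 2003 ± 318 (log2 fold change -0.63, adjusted p = 0.0156), and it did not pass without Taf4asKO replicate 1 or 3. Hmox1, with 50.7 ± 9.50 and 88.7 ± 31.5 normalized counts, did not pass (log2 fold change 0.75, adjusted p = 0.107).

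To set AP-1 beside other genes of the isolation response, 27 further early genes and 11 heat shock genes were examined. Among the early genes 13 were higher and 0 lower, compared to 5.93% and 6.71% of all tested genes, with a median log2 fold change of 0.61 and 26 of 27 values above 0. Without Taf4asKO replicate 1 the number higher was 7 (2.72% of all tested genes), and without Taf4asKO replicate 2 it was 8 (1.84% of all tested genes). Blocked by replicate number, 19 passed as higher (9.09% of all tested genes). Egr1, a zinc finger factor induced with Fos, yielded 72816, 59848 and 79197 normalized counts across the control and 119554, 105889 and 102958 across the Taf4asKO libraries (log2 fold change 0.64, adjusted p = 0.0224), and did not pass when any 1 Taf4asKO library was left out. The largest rises were those of Cebpd (log2 fold change 1.72, adjusted p = 0.000326), Cyr61 (1.24, adjusted p = 0.00317) and Zfp36 (1.12, adjusted p = 0.00372), whose product destabilizes short-lived mRNAs. Dusp1, a phosphatase that switches off MAP kinases, rose by 0.96 (adjusted p = 0.000998). Other early genes did not pass, among them Egr2 with a log2 fold change of 0.024 (adjusted p = 0.971) and Myc with one of 0.25 (adjusted p = 0.407). The heat shock genes, which dissociation also induces, gave 0 higher and 4 lower with a median of -0.32, beside the same 5.93% and 6.71% of all tested genes. Hspa1a and Hspa1b, near-identical copies of the inducible HSP70 gene whose reads can be split or lost, were lower, with log2 fold changes of -1.52 (adjusted p = 0.0039) and -1.62 (adjusted p = 0.00488). Hsph1, a co-chaperone of HSP70, had one of -1.01 and Hsp90ab1 one of -0.55, which did not pass without Taf4asKO replicate 2 or 3. Whether time, temperature or order of the preparations differed between the libraries is not given in the sources used here, and the part of isolation in the AP-1 differences was not tested.

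**Figure D5:**
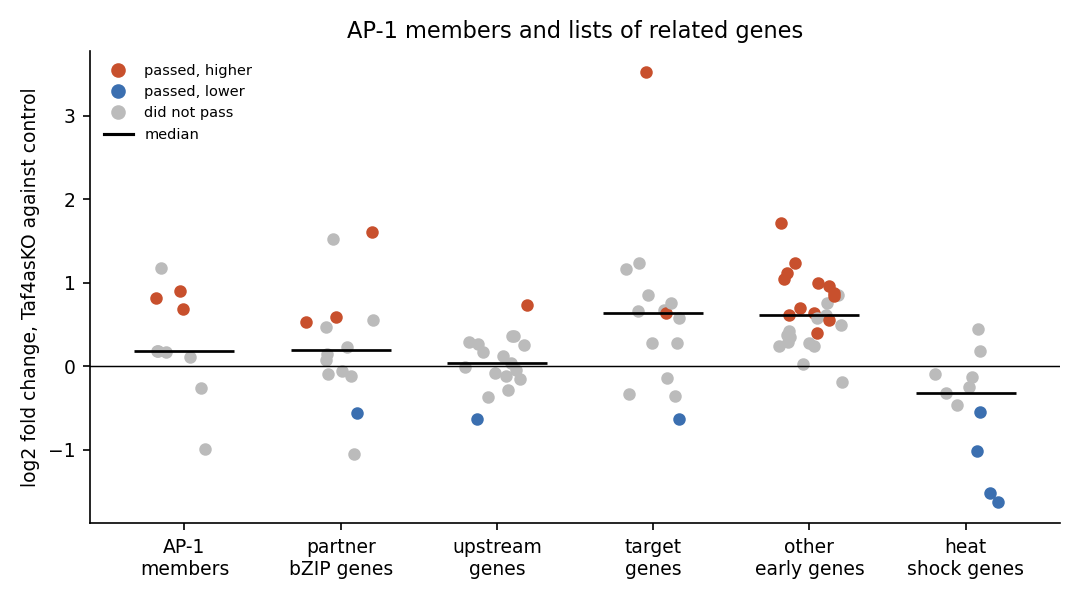
Log2 fold change in Taf4asKO against control of every tested gene in 6 lists, with the list median as a bar. Red and blue points passed the test as higher and lower. The AP-1 members (median 0.18) hold 3 red points, the other early genes (median 0.61) 13 red and 0 blue, and the heat shock genes (median -0.32) 0 red and 4 blue.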

How the data were processed

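RNA-seq was made from total RNA of FACS-sorted, freshly isolated MuSCs with a stranded low-input total RNA kit. According to the study's methods and processing notes, the authors trimmed reads with Trimmomatic 0.39, aligned them to mm10 with STAR 2.6.0c, removed reads that mapped to several places, counted them with featureCounts 1.6.0 and normalized with DESeq2 1.14.1. Removing reads that mapped to several places lowers the values of genes with near-identical copies. Reads that overlapped several genes were not counted. The deposited values are treated as a score: the authors divided counts by size factors and rounded the result to whole numbers, as inferred from the values. They are called normalized counts. Per-library reads are not given by them, so precision rests on the 3 libraries per group.

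Genes with a mean of at least 5 (18562 of 22081) entered a two-sided limma test (version 3.58.1, run in R 4.3.3, with an eBayes trend) on log2(value + 1), without covariates, on all 6 libraries. On this scale the changes of genes with low values come out too small. To pass, a gene needed a 1.3-fold change and an adjusted p (Benjamini-Hochberg) under 0.05, limits taken from the study. In simulated data of the same size the test was checked before use. The members and all gene lists were chosen with earlier results of these data known. Members were named in full, and listed genes when they passed the threshold or were among the largest changes of their list, while a few others (Egr2, Myc) were chosen after their values were seen.

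Replicate numbers come from the sample titles of both groups. Deviations from the group means of same-numbered libraries correlated at 0.235, 0.126 and 0.150 over genes (mean 0.17). Such deviations cancel out within a group, so the mean of -0.0848 for other pairs largely follows from this value and is no separate contrast. The titles state no pairing, and whether the numbers pair the libraries was not tested. The number was used as a block in a further fit. Other fits changed the pseudocount (0.1 or 5), the filter, the scaling, the weights (limma-voom), the variance shrinkage or the libraries. Adjustment of each library by GC content and exon length, using splines with 5 degrees of freedom, was added after seeing the data. Exon lengths came from GENCODE M21 (mm10), clipped to the ends in the table, with which 7 of 10 members agreed. The symbol Map2k7 occurred in more than 1 row, and the protein-coding row with the highest mean was used. Ratios were compared with exact permutation tests in scipy 1.17.1, and figures drawn with matplotlib 3.10.9. A few genes of the marker and profile comparisons are not reported here.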

Additional observations from a re-analysis of the deposited data

How the results depend on the processing

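Fos, Junb and Jund passed as higher, and Fosb, Fosl2, Jun, Maff, Mafk and Taf4 did not pass, in all 19 fits. Values turned negative for Fosb without control replicate 2 (-0.029) and without Taf4asKO replicate 1 (-0.072), for Fosl2 in the same fits (-0.18 and -0.092) and for Mafk without control replicate 2 (-0.098). With the replicate number as a block, Atf3 (log2 fold change 1.17) and Fosl1 (-0.99) passed, which made the count of members lower 1, and Dnaja1 made the count of heat shock genes higher 1. The block changed no other call among the members. Atf3 also passed with a pseudocount of 5 (1.17, adjusted p = 0.0478), without a filter on the mean (1.17, adjusted p = 0.0425) and with the GC content and exon length adjustment without and with the block (1.24 in both). A fold limit of 2 left 0 members higher, and an adjusted p under 0.01 left 2. With the GC content and exon length adjustment and the block, the counts higher were 5 for partner genes, 5 for target genes and 20 for early genes, and upper-quartile scaling gave 2 upstream genes lower. Upper-quartile scaling also moved the calls over all genes from 1101 higher and 1246 lower to 939 and 1422. Leaving out Taf4asKO replicate 1, 2 or 3 gave 505, 341 and 365 genes higher and 790, 621 and 595 lower. Leaving out each library in turn gave log2 fold changes of -1.36 to -0.64 for Fosl1, 0.73 to 1.45 for Atf3, -0.072 to 0.37 for Fosb, -0.18 to 0.27 for Fosl2 and -0.098 to 0.34 for Mafk. The same fits gave 3 to 4 members higher and 0 to 1 lower, 2 to 4 partner genes higher and 0 to 1 lower, 1 to 2 upstream genes higher and 0 to 2 lower, 1 to 3 target genes higher and 0 to 1 lower, 7 to 12 early genes higher and 3 to 5 heat shock genes lower. Causes of these shifts were not tested. With 3 libraries per group, differences such as that of Fosb were not resolved, and the depth in reads is not known from these values.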
